A study of Caenorhabditis elegans with 2 samples.

Results

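The sites described here are candidate places in the C. elegans genome for chromatin carrying the nuclear Argonaute HRDE-1 (WAGO-9). They lie near genes annotated as small nucleolar RNAs (snoRNAs). A site was taken when its summit, the highest point of a called interval, was at most 500 bp away from where the annotation starts a snoRNA gene and over 500 bp from every tRNA gene start. The rule gave 266 sites out of 29977 nuclear candidates in the list called from both replicates together, and it used no signal value. The authors deposited that list as peaks and background, so a site on it need not be bound by HRDE-1. Whole hermaphrodite young adults of strain YL557, which expresses HRDE-1 with a C-terminal GFP-FLAG tag, were collected 48 h after starved L1 larvae were released. Per the labels' description, the antibody used for the precipitation recognises GFP, and the series has 1 group with 2 biological replicates and no other genotype. The worms were whole animals, so the tissue that a site comes from cannot be told, and no control list was analysed here.

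snoRNAs guide chemical changes on ribosomal RNA and on other RNAs: box C/D snoRNAs direct methylation of the ribose with fibrillarin, and box H/ACA snoRNAs direct the change of uridine to pseudouridine with dyskerin. Some lie in introns of protein-coding genes and are cut out of the spliced intron, whereas others have a promoter of their own. HRDE-1 acts in germline nuclei, where it is guided by small RNAs to nascent transcripts and is known for silencing that is inherited over generations. RNA polymerase III reads tRNA genes through an A box and a B box inside the gene, and snRNA genes carry a promoter element a short way upstream of their start.

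The sequence before the snoRNA start is shown for sites that the results turn on, each as 100 bases before the start and the first 20 bases of the gene, read from the RefSeq copy of assembly WBcel235. The first set holds a pair of letters resembling the A and B boxes of a tRNA gene: TGGNNNA followed 20 to 70 bases later by GTTCNA, where N is any base, called the paired motif here. Capitals mark both parts. The window of W03C9.9 is chrII:11960798-11960917 on the plus strand. That of Y75B12B.12 is chrV:15191074-15191193 on the minus strand. That of F32E10.10 is chrIV:7574022-7574141 on the plus strand. That of T03F7.8 is chrV:11314158-11314277 on the plus strand. That of F55A11.10 is chrV:11782892-11783011 on the plus strand.
W03C9.9: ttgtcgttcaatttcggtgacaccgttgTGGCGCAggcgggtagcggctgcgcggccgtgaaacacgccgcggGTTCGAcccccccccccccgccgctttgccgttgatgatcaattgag
Y75B12B.12: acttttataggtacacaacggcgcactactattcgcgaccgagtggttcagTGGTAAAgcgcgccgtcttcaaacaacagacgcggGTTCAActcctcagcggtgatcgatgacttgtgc
F32E10.10: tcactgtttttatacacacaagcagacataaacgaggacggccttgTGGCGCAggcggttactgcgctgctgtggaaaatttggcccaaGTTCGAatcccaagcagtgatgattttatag
T03F7.8: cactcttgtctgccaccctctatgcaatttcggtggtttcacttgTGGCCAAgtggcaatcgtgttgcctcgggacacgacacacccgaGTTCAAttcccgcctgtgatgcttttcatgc
F55A11.10: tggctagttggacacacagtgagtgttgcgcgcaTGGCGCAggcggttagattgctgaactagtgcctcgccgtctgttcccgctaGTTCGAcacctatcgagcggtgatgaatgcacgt

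The next set holds GNAACNCG followed within 10 bases by TGTC, called the proximal motif here for its place, again in capitals. The window of ZK994.7 is chrV:8500479-8500598 on the plus strand. That of F54F11.6 is chrII:13521201-13521320 on the plus strand. That of C16D9.11 is chrV:8228950-8229069 on the minus strand. That of Y53F4B.47 is chrII:15025874-15025993 on the minus strand.
ZK994.7: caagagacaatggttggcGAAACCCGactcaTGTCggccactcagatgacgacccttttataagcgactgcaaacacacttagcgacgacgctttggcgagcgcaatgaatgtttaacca
F54F11.6: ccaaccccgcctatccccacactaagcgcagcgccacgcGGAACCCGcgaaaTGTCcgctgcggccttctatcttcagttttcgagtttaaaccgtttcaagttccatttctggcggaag
C16D9.11: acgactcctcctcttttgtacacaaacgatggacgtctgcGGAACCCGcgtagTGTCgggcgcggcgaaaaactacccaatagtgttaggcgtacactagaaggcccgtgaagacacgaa
Y53F4B.47: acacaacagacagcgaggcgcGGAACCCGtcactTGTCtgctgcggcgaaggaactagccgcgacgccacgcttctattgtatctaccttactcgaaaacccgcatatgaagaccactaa

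For contrast, the last set lies before snoRNAs in introns of ribosomal protein genes, holds neither motif and has its strong summit far from the snoRNA start. It does not stand for all genes with neither motif. Of 175 sites at such genes, 56 lay within 100 bp of the start. Among them were strong summits 40 bp before Y23H5B.10 and 34 bp before C10C6.8. The window of Y43B11AR.7 is chrIV:7083911-7084030 on the minus strand. That of C16A3.11 is chrIII:6374529-6374648 on the minus strand.
Y43B11AR.7: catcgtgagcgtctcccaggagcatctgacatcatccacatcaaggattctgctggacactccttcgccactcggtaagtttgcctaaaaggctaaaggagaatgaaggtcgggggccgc
C16A3.11: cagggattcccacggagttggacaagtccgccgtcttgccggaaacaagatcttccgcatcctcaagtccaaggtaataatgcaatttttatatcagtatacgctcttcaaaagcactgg

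Of the 266 sites, 98 (36.8%, 95% Clopper-Pearson interval 31.0 to 42.9%) were in the list that the authors thresholded by agreement between the replicates (irreproducible discovery rate, IDR), against a background of 4.40% of all nuclear candidates. The share was similar at other small RNA genes, with 32.5% of 606 sites at tRNA genes and 31.7% of 123 sites at snRNA genes. It is thus not particular to snoRNA genes. The IDR list held the 1341 pooled candidates of highest signal, so membership is the same as a pooled signal of at least 74.0 and is no separate evidence beside the signal. The signal is the authors' value for each site on a scale that the sources do not state. Its median was 44.4 at the snoRNA sites and 23.0 over all nuclear candidates, with 55.9 at the tRNA sites and 48.2 at the snRNA sites. At the 168 snoRNA sites outside the IDR list the median was 25.7. Intervals cover counting error only, and read depth is unknown. The 266 sites lay nearest to 193 of 346 nuclear snoRNA genes, of which 123 had 1 site, 67 had 2 and 3 had 3, and 87 genes had a site in the IDR list. Sites at 1 gene share their source and are not independent.

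The strong sites stood close to the snoRNA start in all 3 settings of the gene, as the plot of signal against offset shows. Of the 103 summits within 100 bp of the start, 66 (64.1%, 54.0 to 73.3%) were in the IDR list, against 32 of the 163 farther out (19.6%, 13.8 to 26.6%). Upstream the share fell away fast: 43 of 65 sites from -100 to 0 bp, 2 of 39 from -250 to -101 bp and 4 of 35 beyond. Downstream it fell more slowly, with 23 of 38 sites from 1 to 100 bp, 18 of 49 from 101 to 250 bp and 8 of 40 from 251 to 500 bp. The median offset was -15.5 bp over all sites and 0 bp over those in the IDR list, with a middle range of -44.75 to 103.5 bp. The sign of the median over all sites rests on which library is used: the same rule gave -31 bp in the replicate 2 list alone and 2.5 bp in the replicate 1 list alone.

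**Figure D1:**
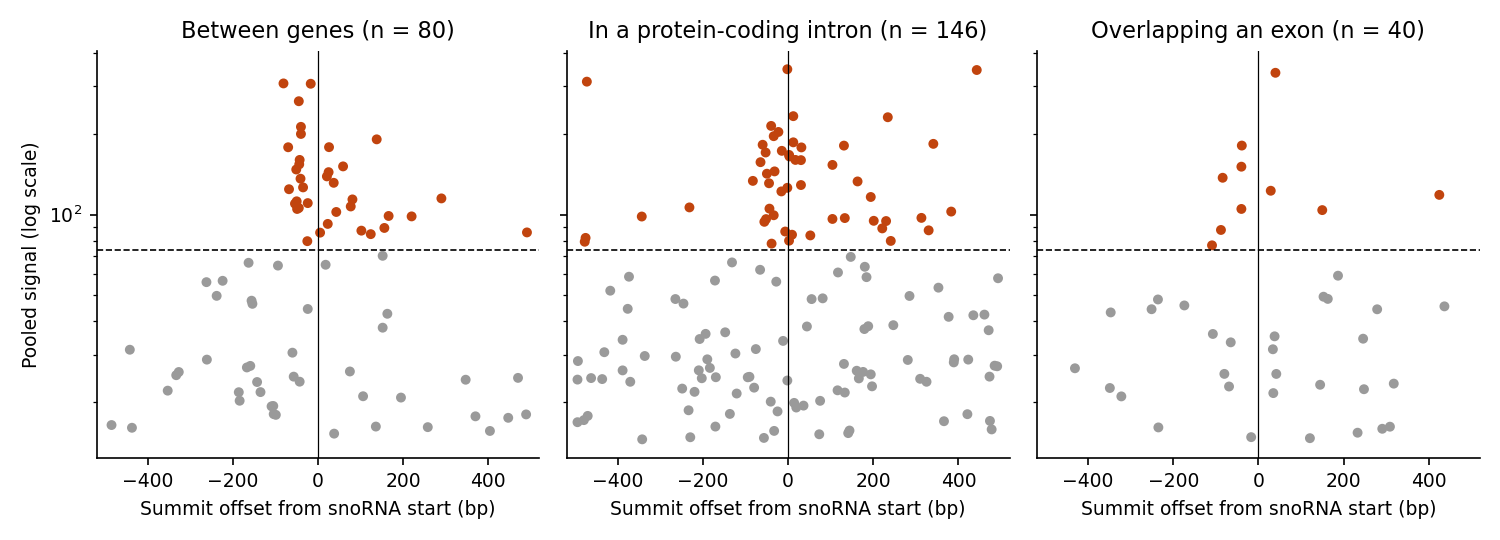
Each point is 1 of 266 sites, with the summit's offset from the snoRNA start in bp (negative is upstream) against the pooled signal on a log axis, split by where the snoRNA lies. Orange sites are in the IDR list, whose lowest signal of 74.0 is the dashed line, and they gather around the start.

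**Figure D2:**
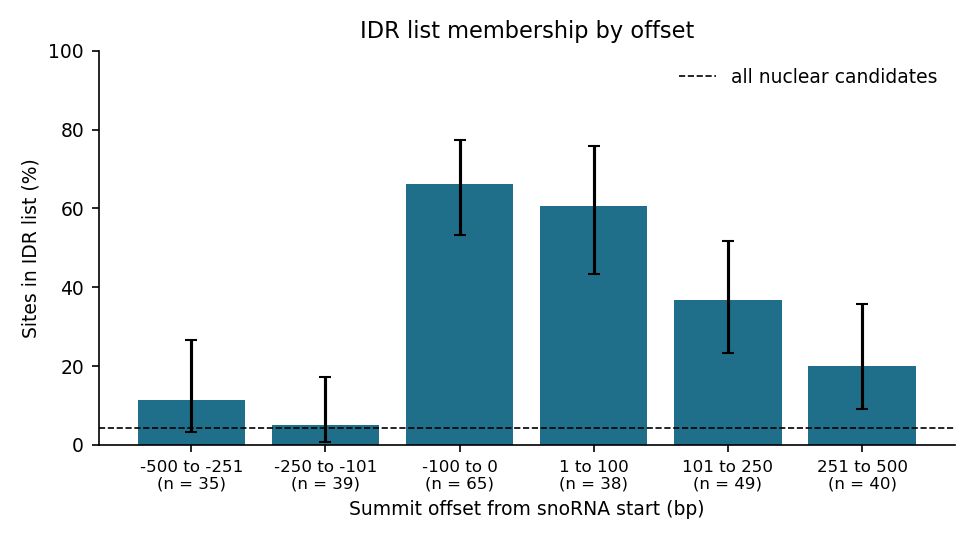
Bars give the percent of sites in the IDR list in 6 ranges of offset from the snoRNA start, with 95% Clopper-Pearson intervals and n under each bar. The dashed line is the 4.40% of all nuclear candidates, and the bars nearest the start reach 66.2% and 60.5%.

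Each replicate taken alone held most of these sites. A summit within 100 bp in both was found at 132 of the 266 (background 6806 of 29977 nuclear candidates). A replicate 1 summit lay within 100 bp of 61.7% of the snoRNA sites (background 36.5% of nuclear candidates), and a replicate 2 summit within 100 bp of 80.5% (background 70.1%). Of the 98 sites in the IDR list, 89 had a replicate 1 summit and all 98 had a replicate 2 summit that close. Among the 1341 strongest sites of each replicate, 80 of the 266 sites were matched in replicate 1 (background 3.99%) and 92 in replicate 2 (background 4.28%). The 132 sites matched in both had a median rank of 755.5 among 24269 sites in replicate 1 and 698.5 among 30000 in replicate 2. For the 6806 nuclear candidates matched in both, the median ranks were 6970 and 7149.5.

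**Figure D3:**
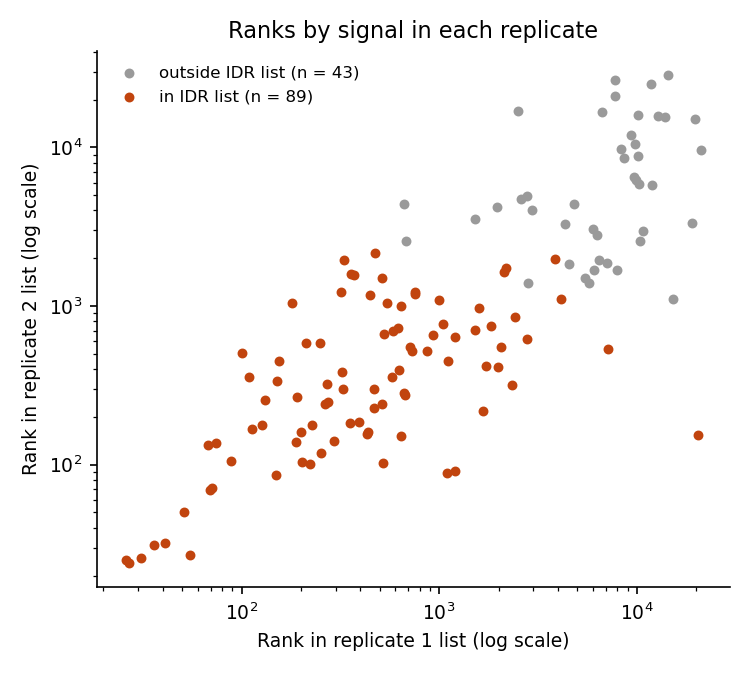
Each point is 1 of 132 sites with a summit within 100 bp in both replicates, with its rank by signal in the replicate 1 list against that in the replicate 2 list, both on log axes. Orange sites are in the IDR list, with median ranks of 449 and 336, and a few of them rank far lower in replicate 1, down to 20536 at C53B7.8.

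Sites were then split by where the snoRNA lay. Between genes, 36 of 80 sites were in the IDR list (45.0%, 33.8 to 56.5%). In protein-coding introns it was 52 of 146 (35.6%, 27.9 to 44.0%), and 10 of 40 (interval 12.7 to 41.2%) at snoRNAs that overlap a protein-coding exon or are only partly inside a gene. These intervals overlap. Within introns, the share was 43 of 120 where host and snoRNA share a strand and 9 of 26 where they do not. Protein-coding starts or 3′ ends lay within 500 bp of 100 of the 266 sites, and 50 of those were in the IDR list, against 48 of the 166 sites with neither nearby (28.9%, 22.2 to 36.4%). Their part in the result was not tested.

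The strongest intron site lay 2 bp before ZK994.7, in an intron of pxn-1, which encodes a peroxidasin, with its summit at base 8500577 of chromosome V. Its pooled signal was 347, with 98.5 in replicate 1 (rank 26) and 247 in replicate 2 (rank 25). The nearest protein-coding start and 3′ end were 5688 and 1819 bp away, so this site stood far from either end of its host. At F54F11.6, in an intron of the chemoreceptor family gene sre-45, the summit lay 234 bp after the start with a signal of 230 (69.6 in replicate 1 and 168 in replicate 2). T03F7.8, on the strand opposite to its host cutl-18, had its summit 40 bp before the start and a signal of 214 (63.6 and 148). F55A11.10 in F55A11.6 (203), Y43F8C.22 in Y43F8C.7 (232), C10C6.8 in catp-8 (196), C04G6.12 in mpk-2 (186) and C16D9.11 in rol-3 (182) had summits from 60 bp before to 12 bp after the start. Of the 12 strongest intron sites, the other 4 lay over 100 bp from the snoRNA start: Y43B11AR.7 in rps-4, JC8.15 in tag-115, C16A3.11 in rps-13 and F25H2.14 in tct-1, whose summit was still inside the snoRNA gene. The summit counted at JC8.15 was closer to other features than to the snoRNA: it lay 473 bp before the snoRNA, 136 bp from a protein-coding start and 37 bp from a 3′ end.

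Between genes, the strongest site lay 81 bp before W03C9.9 on chromosome II, with a pooled signal of 308, 83.1 in replicate 1 (rank 41) and 223 in replicate 2 (rank 32). Y75B12B.12 followed with 307 (87.6 and 223), its summit 17 bp before the start, and F32E10.10 with 264 (75.9 and 189), 45 bp before the start. These 3 and T06C12.16 (212, 40 bp before the start) all hold the paired motif. The other 8 of the 12 strongest were Y23H5B.10, Y53F4B.47, T19B4.8, ZK265.10, Y39G10AR.24, F30H5.4, K07C10.2 and H09I01.2, with signals from 147 to 200. Of these 12 summits, 11 lay within 81 bp of the snoRNA start, and the exception was Y53F4B.47 at 138 bp after it. A protein-coding 3′ end lay 74 bp from the summit at W03C9.9, nearer than the snoRNA start. That distance was 27 bp at Y53F4B.47, 127 bp at T06C12.16, 135 bp at F30H5.4 and 148 bp at Y39G10AR.24. It was 184 bp at Y75B12B.12 and 278 bp at F32E10.10. The remaining summits, at Y23H5B.10, T19B4.8, ZK265.10, K07C10.2 and H09I01.2, had no protein-coding start or 3′ end within 500 bp. Among snoRNAs that overlap an exon, the strongest site had a signal of 337 and lay 40 bp after the start of C51F7.4, inside frm-7. Its summit, at base 12303639 of chromosome V, also lay shortly before C51F7.3, which starts at base 12303708. C51F7.3 is an intron snoRNA with the paired motif. Each summit was counted only at the nearest snoRNA start, so this site is not counted at C51F7.3.

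The upstream motifs were picked after the sequences and the IDR calls of these genes had been seen. For the paired motif 16 definitions were compared and for the proximal motif 6, and the text gives the range over all of them, so the shares below are a description with no test. The window ran from 150 bases before the start to 20 bases into the gene on the snoRNA's strand. The paired motif was found at 38 of 346 snoRNA genes and the proximal motif at 31, and no gene is counted under both. Of the 38 genes with the paired motif, 25 had a site in the IDR list (65.8%, 48.6 to 80.4%). Over the 16 definitions this share ran from 60.7 to 91.7%, for 12 to 56 genes, and the definition used here is among the lower ones. Of the 31 genes with the proximal motif, 22 had an IDR site (71.0%, 52.0 to 85.8%), with 71.0 to 76.5% over 6 definitions. Of the 277 genes with neither, 40 had one (14.4%, 10.5 to 19.1%). C51F7.4 is among these 40 and C51F7.3 among the paired genes without an IDR site, because summits were counted only at the nearest snoRNA. The full B box of tRNA genes, a stricter form of the second part alone, stood in the window of 8 snoRNA genes, and 6 of these had an IDR site. Among the strongest 1341 sites of a single replicate, 24 of the 38 paired genes were matched in replicate 1 and 25 in replicate 2, as were 18 and 22 of the 31 proximal genes and 30 and 37 of the 277 others.

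The same motifs were rarer before most other genes. The paired motif stood in the same window of 276 of 19973 protein-coding genes (1.38%) and the proximal motif in 17 (0.0851%). On the opposite strand of the snoRNA windows the paired motif was found at 6 genes and the proximal motif at none. Other small RNA genes shared them: the paired motif lay inside 457 of 612 nuclear tRNA genes (74.7%), and the proximal motif before 29 of 129 snRNA genes (22.5%). In windows of 120 bases on each side of the summit, read on both strands, the paired motif stood at 30 of 98 snoRNA sites in the IDR list (30.6%) and at 10 of 168 outside it (5.95%). It stood at 7.22% of 29105 nuclear candidates away from tRNA and snoRNA starts, and the proximal motif at 0.526% of them against 13.3% of the 98. A match says only that the letters are there.

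**Figure D4:**
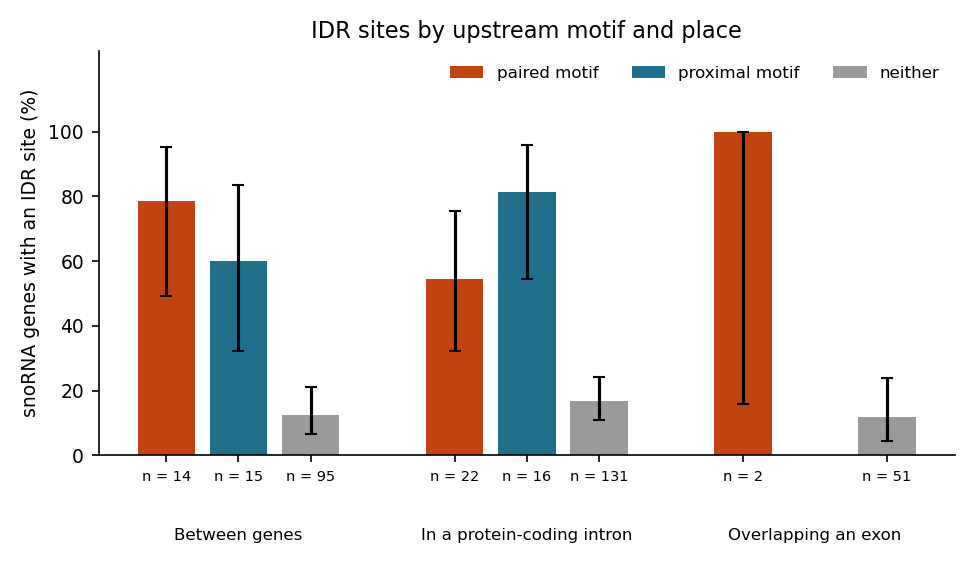
Bars give the percent of snoRNA genes with a site in the IDR list, by upstream motif and by where the gene lies, with 95% Clopper-Pearson intervals and n genes under each bar. The share for genes with neither motif is 11.8 to 16.8% in the 3 places, and no gene overlapping an exon holds the proximal motif.

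The same counts were made for each place of the gene. Between genes, 11 of 14 paired genes, 9 of 15 proximal genes and 12 of 95 others had an IDR site. In introns the counts were 12 of 22, 13 of 16 and 22 of 131. Counted by site rather than by gene, among sites more than 500 bp from any protein-coding start or 3′ end, 13 of 28 at paired genes, 18 of 31 at proximal genes and 17 of 107 at the others were in the IDR list.

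Summits sat differently against the motifs. At the 25 paired genes with an IDR site, the strongest summit lay a median of 39 bp before the snoRNA start. Its median place was 25 bp after the start of the first motif, between the 2 parts. Single summits lay outside the 2 parts, 81 bp before the snoRNA start at W03C9.9 and 81 bp after it at ZK643.9. While 24 of 25 lay within 75 bp of the start of the second motif, 22 of 25 lay that close to the snoRNA start. The second motif began a median of 14 bp before the snoRNA start, so closeness to either cannot be told apart. At the 22 proximal genes the strongest summit lay a median of 64.5 bp after the start, with a middle range of -11.75 to 159 bp. Only 9 lay within 75 bp of the second motif, and 11 within 75 bp of the snoRNA start. For comparison, the median summit in the IDR list lay 32 bp after the start of tRNA genes (197 sites) and 232 bp after the start of snRNA genes (39 sites).

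**Figure D5:**
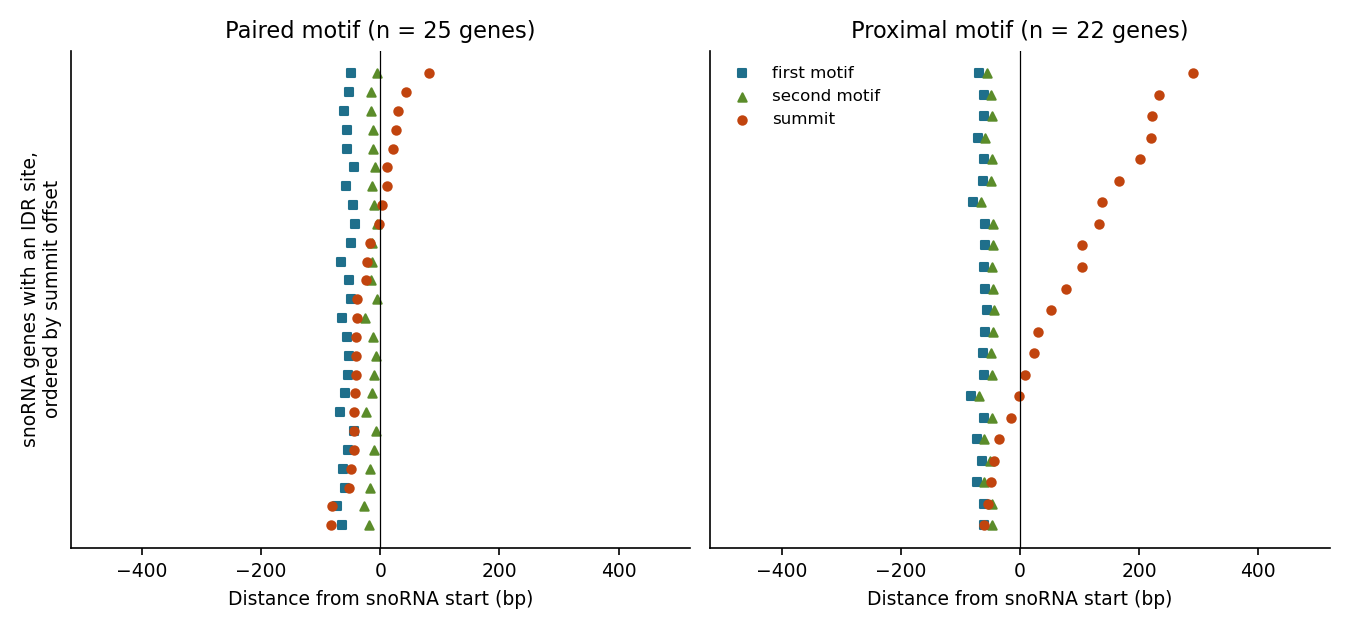
Each row is 1 snoRNA gene with a site in the IDR list, with the start of the first motif (squares), the start of the second motif (triangles) and its strongest summit (circles) in bp from the snoRNA start. Summits of the 25 paired genes stay close to the motifs and to the snoRNA start, and those of the 22 proximal genes spread downstream.

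Letters inside and after the snoRNA were counted next. A run of TTTTT, the letters at which RNA polymerase III stops, stood within 20 bases after the gene at 39 of the 87 genes with an IDR site (44.8%) and at 31 of the other 259. By motif it was 21 of 38 paired genes, 6 of 31 proximal genes and 43 of 277 others, against 80.6% of tRNA genes and 21.5% of protein-coding genes. Among genes with an IDR site alone, it was 16 of 25 paired genes, 6 of 22 proximal genes and 17 of 40 others (42.5%). The run was thus common at genes with an IDR site that hold neither motif too. Box D (CTGA in the last 15 bases) was found at 77 of 346 snoRNA genes, and at 18 of 38 paired and 19 of 31 proximal genes. Box C (TGATGA in the first 15 bases) was found at 17 of 346. The H/ACA tail (ACA 3 bases before the end) was found at 58 of 346 genes, at 12 of 38 paired genes and at 0 of 31 proximal genes. These letters were looked for on the snoRNA strand only, and an exact match misses snoRNAs whose annotated ends are a few bases off.

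Ribosomal protein genes hosted 19 of the 169 intron snoRNAs, and 10 of the 19 had a site and 5 an IDR site (26.3%). At other intron hosts, 96 of 150 snoRNAs had a site and 42 an IDR site (28.0%), so the IDR shares were close. Of their IDR sites, 0 of 6 lay within 100 bp of the snoRNA start, against 31 of 46 at other hosts. At rps-4 the stronger of the 2 summits counted at Y43B11AR.7 had a signal of 345 (97.3 in replicate 1 and 260 in replicate 2) and lay 443 bp after the snoRNA start and 209 bp past the 3′ end of the host. The weaker one (79.8) lay 241 bp after the snoRNA start and 7 bp past that end. The start of another protein-coding gene lay 229 bp from the stronger summit and 27 bp from the weaker one. At rps-13 (183) the summit lay 110 bp before the host's 3′ end. At rps-29 (103) the summit lay 94 bp past that end, but only 11 bp from the start of another protein-coding gene. At rps-12 (106) and rpl-7A (98.3) the summit lay 152 and 62 bp before the host's start. Another protein-coding start lay 141 bp from the rps-12 summit. With 6 sites at 5 snoRNAs this is a description of those hosts.

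Genes for the snoRNA machinery were counted at both ends. Of 13 such genes, 8 core proteins and 5 for assembly or processing, 9 had an IDR site within 500 bp of the 3′ end (5.36% of all protein-coding genes did) and 3 within 500 bp of the start (2.91% of all). The short gene nola-3 is counted at both ends for 1 site. Candidates of any signal lay at the start of 12 of the 13 and at the 3′ end of all 13. The share of all protein-coding genes with a candidate of any signal is not given here. These any-signal counts thus have no background and cannot be read as a trait of the snoRNA machinery genes. At the fibrillarin gene fib-1 the 3′ site had a signal of 128, 138 bp past the end. The start site of the ribonuclease gene xrn-2 had 223. nol-56, a core box C/D protein, hosts 4 snoRNAs, the most of any intron host, and 1 of them, K07C5.11, had an IDR site. That site (79.2) lay 478 bp before the snoRNA and 336 bp before the host's start, and it is the site counted above at the start of nol-56.

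Sites in the IDR list lay on both sides of the edge of the 500 bp window. Of the 9 sites from 485 to 495 bp, 1 was in the IDR list, F25H2.15 at 491 bp with 85.8. Of the 5 just outside, from 504 to 520 bp, 2 were: F17C11.14 at 508 bp (96.1) and C06A1.9 at 516 bp before the start (246).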

How the data were processed

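Site lists on genome build ce11 were used as the authors deposited them: 30000 pooled sites, 1341 IDR sites, 24269 from replicate 1 and 30000 from replicate 2. Per the deposited descriptions, each list came from alignments and a control alignment. No source used here names the aligner, the caller, their versions or the IDR threshold. The signal of each site is the authors' deposited value, with no stated scale, and was used only within 1 list. The deposited summit column gave the summit position, counted here from 1.

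Genes came from Ensembl release 115 (WBcel235, the same assembly as ce11: 0 sites passed a chromosome end). The members and gene lists were chosen with earlier results of these data known. An intron snoRNA lay inside a protein-coding gene and touched no exon, and hosts counted on either strand. The text names the 12 strongest intron and 12 strongest between-gene sites. A replicate matched with a summit within 100 bp. No test was made, since there is 1 group. Upstream motifs were found by inspecting sequences of genes with and without an IDR site. The ranges given cover all 16 paired and 6 proximal definitions tried. The main definitions were picked after seeing the counts, and the main paired one is not the one of highest share. The rule, classes and motif search were checked on made-up genes with known answers. Scripts ran in Python 3.11.15 with pandas 2.3.3, numpy 2.4.6, scipy 1.17.1 and matplotlib 3.10.9.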

Additional observations from a re-analysis of the deposited data

How the results depend on the processing

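No paired analysis was possible because there is only 1 group. Over 13 results and 104 alternatives, 78 values stayed within the 95% interval of the reported value, or within 1.5 times for a count, and 26 did not. A 200 bp window gave 168 sites, 47.0% in the IDR list (44.0% in introns), a median signal of 64.8 and 70.8% with a replicate 1 summit. A 1000 bp window gave 444 sites, 27.5% in the IDR list (28.1% between genes), a median signal of 34.4 and 54.5% with a replicate 1 summit. Counting only the stronger 670 IDR sites lowered the shares, as it must, to 25.6% of all sites, 22.6% in introns and 33.8% between genes. With the strongest sites of 1 replicate in place of the IDR list, the share was 30.1 to 34.6%. The median offset from the snoRNA start was -31 to 2.5 bp in the lists of single replicates, against -15.5 bp. It was 13 bp with a 1000 bp window and 14 bp when sites were taken by distance to the gene body. Replicate 1 summits were matched at 45.1% of sites within 50 bp, 75.9% within 250 bp and 85.0% by any overlap, and replicate 2 summits at 70.7%, 90.6% and 94.4%. Other alternatives were chosen after seeing the data. Away from protein-coding starts and 3′ ends the IDR share was 28.9% of all sites and 30.8% between genes. Among paired motif definitions, 4 gave shares above the interval: 84.6%, 88.9%, 81.0% and 91.7%. The cause was not tested. The motif definitions were compared on the same genes they describe, so their shares are likely to be higher than in other data. Read depth is unknown and the handling of reads from near-identical gene copies is not given in the sources.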
